A study of Mus musculus with 125 samples.

Results

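Tight junctions are belts of membrane protein that close the gap between neighbouring cells. Claudins and occludin build the strands between a pair of cells, tricellulin and its angulin partners seal the corners where several cells meet, junctional adhesion molecules hold the membranes together, and scaffold proteins tie the belt to the actin cytoskeleton. In the endothelium of brain and retina these belts are continuous and form part of the blood-brain and blood-retina barriers, whereas capillaries of liver, kidney and most other organs are leakier. Described here are 8 genes of this belt: the strand proteins Cldn5 (claudin-5, the main claudin of brain endothelium), Ocln (occludin) and Marveld2 (tricellulin), the angulin Lsr, the adhesion molecules F11r (JAM-A) and Jam2 (JAM-B), and the scaffolds Tjp1 (ZO-1) and Cgnl1 (paracingulin). They were chosen by symbol as 8 of the 27998 genes of the single-cell tables. In the chromatin data they were taken as the 303 of 293685 open regions that overlap one of these genes or lie within 50 kb of it in the mouse build mm10, and 16 of the 303 are shared by the neighbours Ocln and Marveld2.

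The chromatin data were ATAC-seq peak lists, which mark DNA open to a transposase, from 66 mouse libraries. Nuclei labelled endothelial gave 37 libraries and nuclei of the whole tissue, labelled input, gave 29. Brain, retina, heart, kidney, liver and lung were taken from adult mice of 2 months and from pups labelled P6, and brain, heart and trunk from embryos labelled E12. All of these animals had received tamoxifen at 0.015 mg/kg, which switched on GFP in vessels. It was given at E10.5 for collection at E12.5, at P1 and P3 for collection stated as P7 in the protocol, and 7 days before collection in adults. The protocols used here name no Cre driver, strain or reporter allele. The RNA data were 5 single-cell libraries of brain, from cells enriched with beads against CD31, an endothelial surface protein, of 5 ages: E9.5, then E12.5, then E16.5, pups of P8, and adults of 2 months. The matrix of the library labelled E16.5 was deposited under the name of a later embryonic day, so its exact age is uncertain, and the label is used throughout. The postnatal pair came from cortex only. Where nothing states that libraries of a group came from separate animals, the p-values below measure only the spread between these libraries.

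The labels were checked at 3 endothelial genes with a promoter region, Egfl7, Tie1 and Kdr. All 37 endothelial libraries had a peak at all 3, and input libraries at 0 to 3, also with a median of 3. At the 4 epithelial genes with a promoter region, endothelial libraries had a median of 1 open promoter and input libraries a median of 3. At the 3 neuron genes the medians were 1 and 2, and at the 6 pericyte and smooth muscle genes 3 and 2, higher in endothelial libraries. The promoters of the neural progenitor, astrocyte, mesenchymal, choroid plexus, erythroid and microglia lists had equal medians in both kinds of library, so most of these lists do not separate them. The libraries held 19464 to 144197 peaks, from 10.1 to 59.1 M kept tags. The endothelial list in single cells, which chose the barcodes, is described with the RNA values.

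The promoters of 7 of the 8 genes matched a RefSeq table of build GRCm38.p6, with 9 windows in all, each running from 250 bases before to 50 after a start. Jam2 is named only. The 4 windows below are shown because their regions carry the promoter comparisons that follow, with matches to a searched motif in capitals. Cldn5 lies on the plus strand at chr16:18776597-18776896, and the others on the minus strand at chr13:100552449-100552748 (Ocln), chr13:100616895-100617194 (Marveld2) and chr7:30973420-30973719 (Lsr).
Cldn5: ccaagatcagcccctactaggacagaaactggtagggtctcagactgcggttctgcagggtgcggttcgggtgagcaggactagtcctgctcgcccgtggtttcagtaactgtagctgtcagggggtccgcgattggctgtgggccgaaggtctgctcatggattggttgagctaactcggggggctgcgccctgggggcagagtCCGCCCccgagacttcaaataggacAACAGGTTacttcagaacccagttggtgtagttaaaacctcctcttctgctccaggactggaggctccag
Ocln: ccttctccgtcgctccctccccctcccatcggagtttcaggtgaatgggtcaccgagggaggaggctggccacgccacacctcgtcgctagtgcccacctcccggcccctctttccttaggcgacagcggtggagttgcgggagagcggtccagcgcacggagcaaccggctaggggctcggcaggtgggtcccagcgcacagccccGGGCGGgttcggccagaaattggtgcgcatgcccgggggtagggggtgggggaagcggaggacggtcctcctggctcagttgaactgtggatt
Marveld2: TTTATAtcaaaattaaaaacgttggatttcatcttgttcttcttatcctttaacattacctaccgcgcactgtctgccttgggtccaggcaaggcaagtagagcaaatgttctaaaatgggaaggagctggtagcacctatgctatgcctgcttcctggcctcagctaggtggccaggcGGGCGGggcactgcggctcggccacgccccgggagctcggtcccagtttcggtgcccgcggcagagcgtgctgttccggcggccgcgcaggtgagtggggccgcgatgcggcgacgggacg
Lsr: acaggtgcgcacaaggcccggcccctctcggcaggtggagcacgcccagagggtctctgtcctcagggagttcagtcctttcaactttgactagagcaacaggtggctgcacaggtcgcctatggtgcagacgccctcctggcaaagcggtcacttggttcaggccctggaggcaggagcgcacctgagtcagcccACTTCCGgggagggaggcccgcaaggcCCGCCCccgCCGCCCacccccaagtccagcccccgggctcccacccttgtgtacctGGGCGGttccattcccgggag

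The motifs were searched on both strands. The GC box GGGCGG occurred in 9 of 9 windows of these genes, against 46.2% of 21263 windows of protein-coding genes. The ETS motif CGGAAGT was found in the Lsr window (8.39% of all windows), the grainyhead motif AACCNGTT in the Cldn5 window (1.95%) and TATAAA in both Marveld2 windows (12.6%). The forkhead motif GTAAACA (3.01%), the SOX motif AACAAT (9.05%), the TCF/LEF motif CTTTGAT (3.22%) and the E-box CACGTG (7.84%) were in none of the 9. Matches to different motifs did not overlap, while GC boxes in the Cgnl1 window share a base. The Marveld2 starts lie close together, so that their windows share most of their sequence. The Cldn5 window had 12 CpG and a GC content of 58.3%, close to the medians of all windows, 13 CpG and 56.3%, while the Ocln window printed above had 68.0% and that of Cgnl1 73.3%. A match here describes letters in a window, and no match says only that these letters are not in it.

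In the brain single-cell libraries the 8 genes were at different points of the life of the vessel. Levels are UMIs, which are counts of distinct RNA molecules, per 10000 UMIs of all genes, summed over barcodes with at least 200 genes, at most 10% mitochondrial UMIs and at least 3 of 6 endothelial genes (Cdh5, Pecam1, Egfl7, Esam, Tie1, Kdr). In order of age this left 5644, 6347, 3786, 4778 and 3154 barcodes, or 57.0, 77.0, 95.5, 90.5 and 85.9% of those that passed the first 2 filters. Beside them stand barcodes with none of the 6 genes, which give the level carried by free RNA and other cells. In order of age these were 1118, 554, 51, 130 and 176 barcodes, and their make-up changed. In them epithelial markers summed to 8.38 per 10000 at E9.5, and choroid plexus markers to 377 at E16.5 and 810 at P8. A level near theirs therefore does not mean absence. Each age is 1 library, so there is no test, and intervals are exact Poisson intervals at 95% that cover counting error only. A gene is called here where its level differed at least 2-fold.

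Cldn5, which seals brain capillaries to small molecules, was at 5.72 UMIs per 10000 (E9.5), 21.3 (E12.5), 77.1 (E16.5), 50.1 at P8 and finally 45.9 in the adult. The highest level was at E16.5, and the adult library lay below P8. It was 3.72-fold (3.67 to 3.77) higher at E12.5 than at E9.5 and 3.62-fold (3.60 to 3.64) higher at E16.5 than at E12.5. From E16.5 to P8 the ratio was 0.651 (0.647 to 0.654), short of the 2-fold call. Barcodes with none of the 6 genes held 0.790 to 4.46 per 10000, so Cldn5 in endothelial barcodes was 4.24 times that level at E9.5 and 34.1 times in the adult. After thinning each barcode to 2000 UMIs, 61.2% of endothelial barcodes had a Cldn5 UMI at E9.5, 86.8% at E12.5 and 99.1 to 99.4% at the later 3 ages, against at most 33.3% of barcodes with none of the 6 genes at any age, whose median depth was lower (1247 to 6496.5 UMIs against 4896 to 10469). Those medians are from before thinning. Barcodes under 2000 UMIs were left out. Among endothelial barcodes these were 272 at E9.5, 96 at P8, 172 in the adult and 0 elsewhere. Of barcodes with none of the 6 genes, 511 of 1118 were kept at E9.5, 51 of 130 at P8, 95 of 176 in the adult and all elsewhere. Without thinning the endothelial shares were 85.2, 97.6, 99.9, 99.6 and 99.5%.

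Ocln, a strand protein found at the contacts of many barrier tissues, was at 0.0188 per 10000 (E9.5), 0.287 (E12.5), 1.66 (E16.5), 1.68 at P8 and finally 2.92 in the adult. The E9.5 value rests on 86 UMIs. Its interval, 0.0150 to 0.0232, overlaps that of barcodes with none of the 6 genes, 0.00327 to 0.0307, so Ocln at E9.5 was not told apart from them. From E12.5 on it stood clear of these barcodes. The ratios were 15.3 (12.3 to 19.1) from E9.5 to E12.5 and 5.78 (5.51 to 6.06) from E12.5 to E16.5. E16.5 and P8 differed by a ratio of 1.01 (0.983 to 1.04), within counting error. Thinned shares with an Ocln UMI were 0.335, 5.36, 29.5, 30.2 and 45.3% in order of age.

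Marveld2, the strand protein of the corners, showed the same low start, at 0.0278 per 10000 (E9.5), 0.110 (E12.5), 0.306 (E16.5), 0.275 at P8 and finally 0.479 in the adult. At E9.5 the comparison barcodes held 0.0240, so this value too lay near theirs. It was 3.98-fold (3.30 to 4.83) higher at E12.5 and a further 2.77-fold (2.54 to 3.02) higher at E16.5. P8 lay slightly below E16.5, with a ratio of 0.899 (0.835 to 0.967), and the adult 1.74-fold (1.61 to 1.88) above P8.

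Lsr, the angulin that brings tricellulin to the corners, had 160 UMIs at E9.5, a level of 0.0350 per 10000, which was below the 0.174 of barcodes with none of the 6 genes. Later levels were 1.78 (E12.5), 4.49 (E16.5), 2.39 at P8 and finally 2.94 in the adult. The first step was 51.0-fold (43.7 to 60.0) and the second 2.52-fold (2.46 to 2.57). Like Cldn5, Lsr was highest at E16.5, and its ratio from E16.5 to P8 was 0.533 (0.521 to 0.544).

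The 2 adhesion molecules differed in their course. Jam2 went from 31 UMIs at E9.5, or 0.00678 per 10000 against 0.0180 in the comparison barcodes, to 0.401 (E12.5), 1.21 (E16.5), 1.51 at P8 and finally 2.86 in the adult, with no step down. The adult level was 421-fold (297 to 621) that of E9.5, a ratio taken from an E9.5 level at or below that of the comparison barcodes. F11r was present at E9.5 at 0.398 per 10000, 1.95 times the comparison barcodes, and reached 0.743 at E12.5 and 1.20 at E16.5. At P8 it was 0.267, lower than at E16.5 by 4.52-fold (4.27 to 4.78), and in the adult it was 1.30, higher than at P8 by 4.86-fold (4.58 to 5.17). F11r was the 1 member called lower at P8 than at E16.5 and the 1 member called from P8 to adult.

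Both scaffolds, like Cldn5 and F11r, lay above the comparison barcodes at E9.5, Tjp1 by 2.22 times and Cgnl1 by 3.79 times. Tjp1, which binds claudins and actin, was at 1.56, 1.63 and 1.86 per 10000 in the embryonic libraries by age, at 4.01 at P8 and at 6.33 in the adult. Its level differed little through embryonic life, with ratios of 1.04 and 1.14, and the P8 library was 2.15-fold (upper bound 2.21) above E16.5. Cgnl1, a scaffold that binds ZO-1, was at 1.5 per 10000 (E9.5), 0.397 (E12.5), 0.798 (E16.5), 1.82 at P8 and finally 2.25 in the adult. It was 3.79-fold (3.63 to 3.95) lower at E12.5 than at E9.5, the opposite of Cldn5, Ocln, Marveld2, Lsr and Jam2, and 2.29-fold (2.20 to 2.38) higher at P8 than at E16.5.

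**Figure D1:**
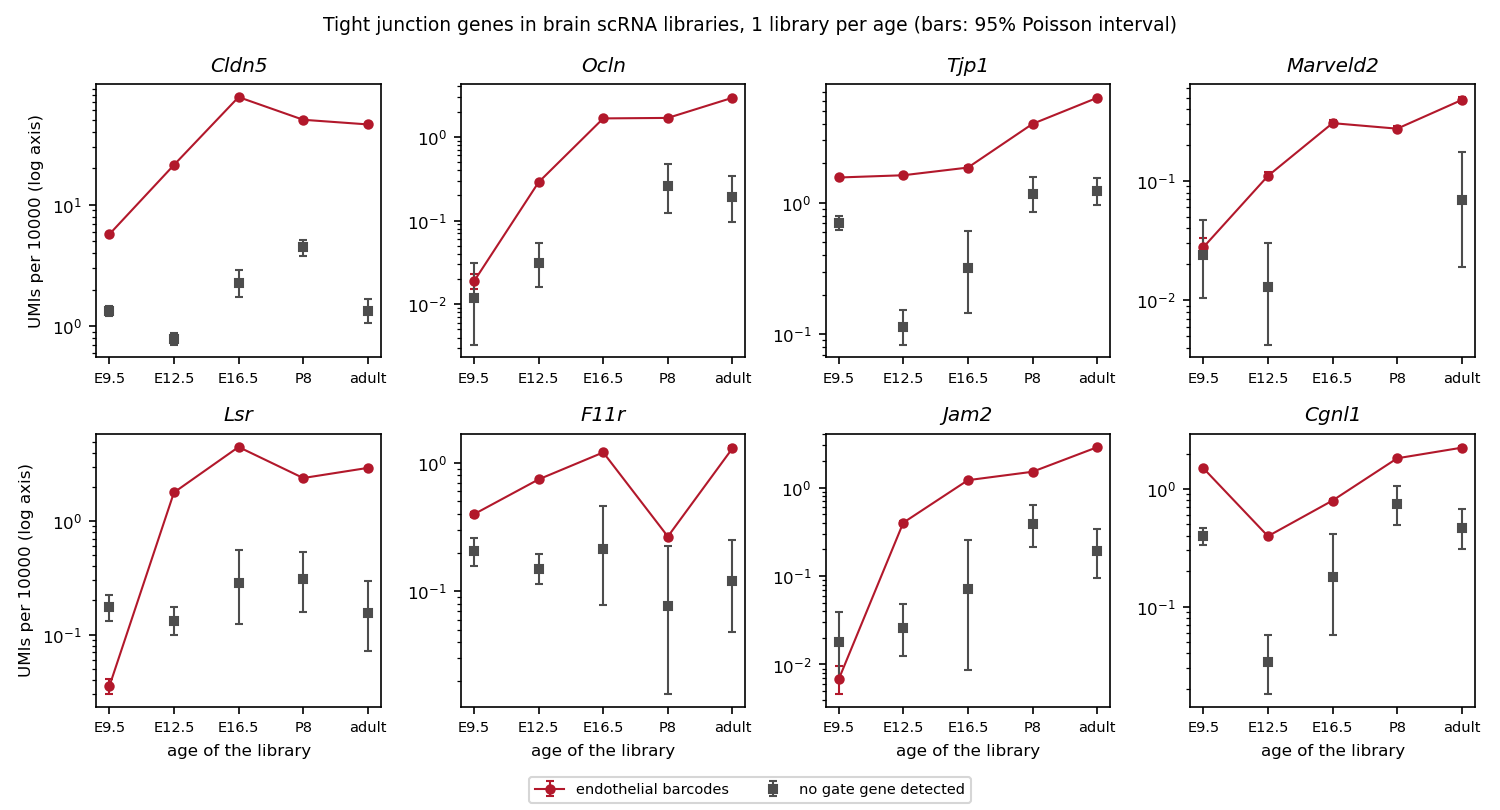
UMIs per 10000 on a log axis for the 8 genes in 5 brain single-cell libraries, with endothelial barcodes in red and barcodes with none of the 6 endothelial genes in grey; bars are 95% Poisson intervals, and grey values of 0 are not drawn. At E9.5 Ocln and Marveld2 lie near the grey level, Lsr below it and Jam2 at or below it. At E12.5 these genes lie above it, while Cgnl1 goes from 1.5 to 0.397.

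By counts, 5 of the 8 genes were higher and 1 lower by 2-fold or more from E9.5 to E12.5, where 36.2% of all genes tested passed that ratio in either direction, 24.1% higher and 12.1% lower. From E12.5 to E16.5 the count was 6 higher and 0 lower (24.5% of all genes, 10.3% higher and 14.2% lower). Of these Cgnl1, at 2.01, was nearest the line. From E16.5 to P8 it was 2 higher and 1 lower (25.5%, 15.3% higher and 10.3% lower), and from P8 to adult 1 higher and 0 lower (31.4%, 16.4% higher and 14.9% lower). From E9.5 to adult, 7 were higher and only Cgnl1, at a ratio of 1.49 (1.44 to 1.55), was not (59.6%, 34.7% higher and 24.9% lower). The median ratio of the 8 genes was 3.85 at the first step and 2.64 at the second, against 1.16 and 0.975 for all genes tested. From E16.5 to P8 it was 0.956, below the 1.05 of all genes, from P8 to adult 1.66 against 1.05, and from E9.5 to adult 12.6 against 1.20.

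Some other features of these libraries moved with age. Summed over 8 pericyte and smooth muscle markers, endothelial barcodes held 0.541 UMIs per 10000 at E9.5, 0.913, 1.88 and 7.02 at the next 3 ages and 16.9 in the adult. The 7 epithelial markers summed to 0.838 at E9.5 and 0.0112 to 0.0674 later, with Epcam and Krt19 at 0 in the adult. Without the barcodes holding an epithelial UMI, which were 20.9% of endothelial barcodes at E9.5, the calls were 6 at the first step and 5 in place of 6 at the second, where the ratio of Cgnl1 came to 2.00, just under the line. Without barcodes holding other markers of pericytes and further cell types, all 5 counts stayed as given. Median UMIs ran from 4896 in the adult to 10469 at E12.5. The matrices of E9.5, P8 and adult name Cell Ranger 4.0.0 in their headers, while those of E12.5 and E16.5 name none, so E12.5 against E9.5 and P8 against E16.5 cross that split and the other 3 comparisons do not. The P8 and adult libraries came from cortex only, so P8 against E16.5 and adult against E9.5 also cross a change of tissue. The part of depth, of the header split and of tissue in the ratios was not tested. The E12.5 and E16.5 libraries shared 50 barcode sequences, 35 of them endothelial in both, and other pairs shared 0 to 31. No doublet caller was run.

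Of 28 other junction genes, Cdh5 and Esam being set aside because they chose the barcodes, 26 could be tested from E9.5 to E12.5, with 5 higher and 4 lower, and 25 from E12.5 to E16.5, with 2 higher and 0 lower. Those 2 were Cldn11, a claudin known from myelin and testis, at 6.53-fold, and Ildr2, a second angulin, at 41.6-fold. Ildr2 was highest at P8, with 1.59 per 10000, after 0.0200 at E12.5 and 0.834 at E16.5, and was at 0.458 in the adult. Cgn, the close relative of Cgnl1, and Cldn3 were lower at E12.5 than at E9.5 by 4.68-fold and 5.54-fold. From E16.5 to P8, 4 were higher and 2 lower of 22, with a median ratio of 1.41. From P8 to adult 3 were higher and 3 lower of 22, and from E9.5 to adult 11 higher and 3 lower of 24. The shares of all genes past 2-fold given above hold for these counts too.

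Chromatin was compared on the authors' fold, the pileup of a peak over its local background in the same library, written as 0 where a library had no peak, and on its log2 for differences. A region was called where limma gave a Benjamini-Hochberg adjusted p under 0.05 over all 293685 regions and the difference was at least 1 on the log2 scale. The first question was whether the promoters themselves were more open in barrier than in other endothelium, and for 6 of 8 genes they were not called. At Cldn5 the promoter region, chr16:18775629-18777860, had a peak in all 37 endothelial libraries. In adult endothelium its folds were 3.56 and 3.27 in brain, 3.95 and 3.42 in retina, 3.83 and 4.29 in heart, 3.05 and 4.22 in kidney, 3.37 and 3.26 in liver, and 4.33 and 3.29 in lung. Brain and retina thus overlapped every other organ, and their difference from the other 4 was -0.05 (SE 0.161) in adults, 0.17 (SE 0.142) at P6, and -0.08 (SE 0.178) for brain against heart and trunk at E12.

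What did set the Cldn5 promoter apart was endothelium against whole tissue in adults. It was open in 12 of 12 adult endothelial libraries and 4 of 10 adult input libraries. Among adult inputs it was absent in brain, kidney and liver and present in heart at 3.41, lung at 3.81 and 5.13 and 1 of 2 retinas at 3.12. Adult input of brain and of heart was 1 library each, so these groups have no spread of their own. Over the 6 organs endothelial nuclei were higher by 1.07 on the log2 scale (SE 0.116, limma adjusted p = 1.31e-09). The difference was 0.93 with adult retina input 1 left out and 0.91 (limma adjusted p = 0.0617) where a peak had to cover at least 50% of the region, both short of the call. At P6 all 16 input libraries had a peak there and the difference was 0.20 (SE 0.0978, limma adjusted p = 0.0965). That P6 value became a call on pileup scaled to kept tags (1.64), equal numbers of top peaks (1.65) and a stricter peak threshold (1.26). In bulk nuclei, fewer cells with an open site and less opening per cell cannot be told apart.

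Ocln and Marveld2 were the 2 genes whose promoter regions rose in barrier endothelium of adults, where 10.7% of 13502 promoter regions of protein-coding genes were called, 10.1% higher and 0.659% lower. The Ocln region, chr13:100551305-100553362, had folds of 3.69 and 3.19 in adult brain, 4.07 and 3.61 in retina and 3.10 and 2.91 in lung endothelium. It had no peak in heart or kidney and 1 of 2 in liver, at 2.45. Brain and retina lay above all others, by 1.30 (SE 0.243, limma adjusted p = 0.000167). At P6 the difference was 0.73 (SE 0.214, limma adjusted p = 0.0099), below the size needed for a call, and at E12 it was 0.36. In input nuclei the region was open in 28 of 29 libraries, so the absence of a peak was found in endothelium of heart, kidney and liver and not in their whole tissue, except adult heart input. The adult call was lost where peaks had to cover 50% of the region (0.00), on equal numbers of top peaks (0.28) and for retina minus lung, libraries with the same read processing (0.35).

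The Marveld2 region, chr13:100616228-100617199, also reaches the start of Rad17. It had folds of 0 and 4.15 in adult brain, 4.77 and 3.94 in retina, 3.03 and 0 in lung, and no peak in heart, kidney or liver endothelium. Brain overlapped the other organs through its library without a peak, and the difference was 1.37 (SE 0.363, limma adjusted p = 0.00842). The call was lost on equal numbers of top peaks (0.00), with a stricter peak threshold (0.56), with 50% of the region covered (1.08, limma adjusted p = 0.351) and for retina minus lung (1.32, limma adjusted p = 0.308). Without adult brain library 2 it was 0.86 (limma adjusted p = 0.256), and without adult retina library 1 it was 1.30 (limma adjusted p = 0.0503). At P6 the barrier difference was 0.90, under the size for a call, and it was called on pileup (1.35), with a stricter peak threshold (1.65) and with 50% covered (1.24). It was lower in endothelial than in input nuclei of adults, by -1.09 (SE 0.262, limma adjusted p = 0.00278), a call lost without any 1 of 4 libraries: adult brain endothelium 1, kidney input 2, liver input 2 or lung endothelium 2 (-0.91 to -0.96).

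The other 5 promoters had a peak in all 37 endothelial libraries. F11r, at chr1:171437206-171438509, ran from 3.04 to 4.16 in the 4 adult brain and retina libraries and from 2.40 to 2.99 in the 8 of other organs, with no overlap. The difference was 0.44 (SE 0.222) and did not pass (limma adjusted p = 0.327). That SE is pooled over all 66 libraries. It includes adult retina input, at folds of 0 and 6.70, with a log2 standard deviation of 1.94 against at most 0.319 in endothelial groups. The p therefore does not measure the spread of the endothelial libraries alone. At P6 F11r folds were 3.54 to 4.66 in brain and retina and 2.40 to 3.28 in other endothelium. At E12 brain, at 2.61 to 3.11, overlapped heart and trunk, at 2.47 to 3.53. The median fold was 2.873 over endothelial and 4.155 over input libraries. For Tjp1, at chr7:65370330-65371868, the P6 difference of 0.26 (SE 0.0957, limma adjusted p = 0.047) passed the test but not the size. Lsr (chr7:30972869-30974379), Jam2 (chr16:84773754-84775292) and Cgnl1 (chr9:71770906-71771860) differed between barrier and other endothelium by -0.30 to 0.07 at both ages. The adult values depended on how a peak was scored. For Lsr the difference was 1.15 on pileup scaled to kept tags (limma adjusted p = 0.000673) and 1.46 where a peak had to cover 50% of the region (limma adjusted p = 0.0413), both calls in the other direction from its main value of -0.04. With that cover Jam2 (1.76, limma adjusted p = 0.000546) and Tjp1 (1.28, limma adjusted p = 0.0379) were called as well.

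**Figure D2:**
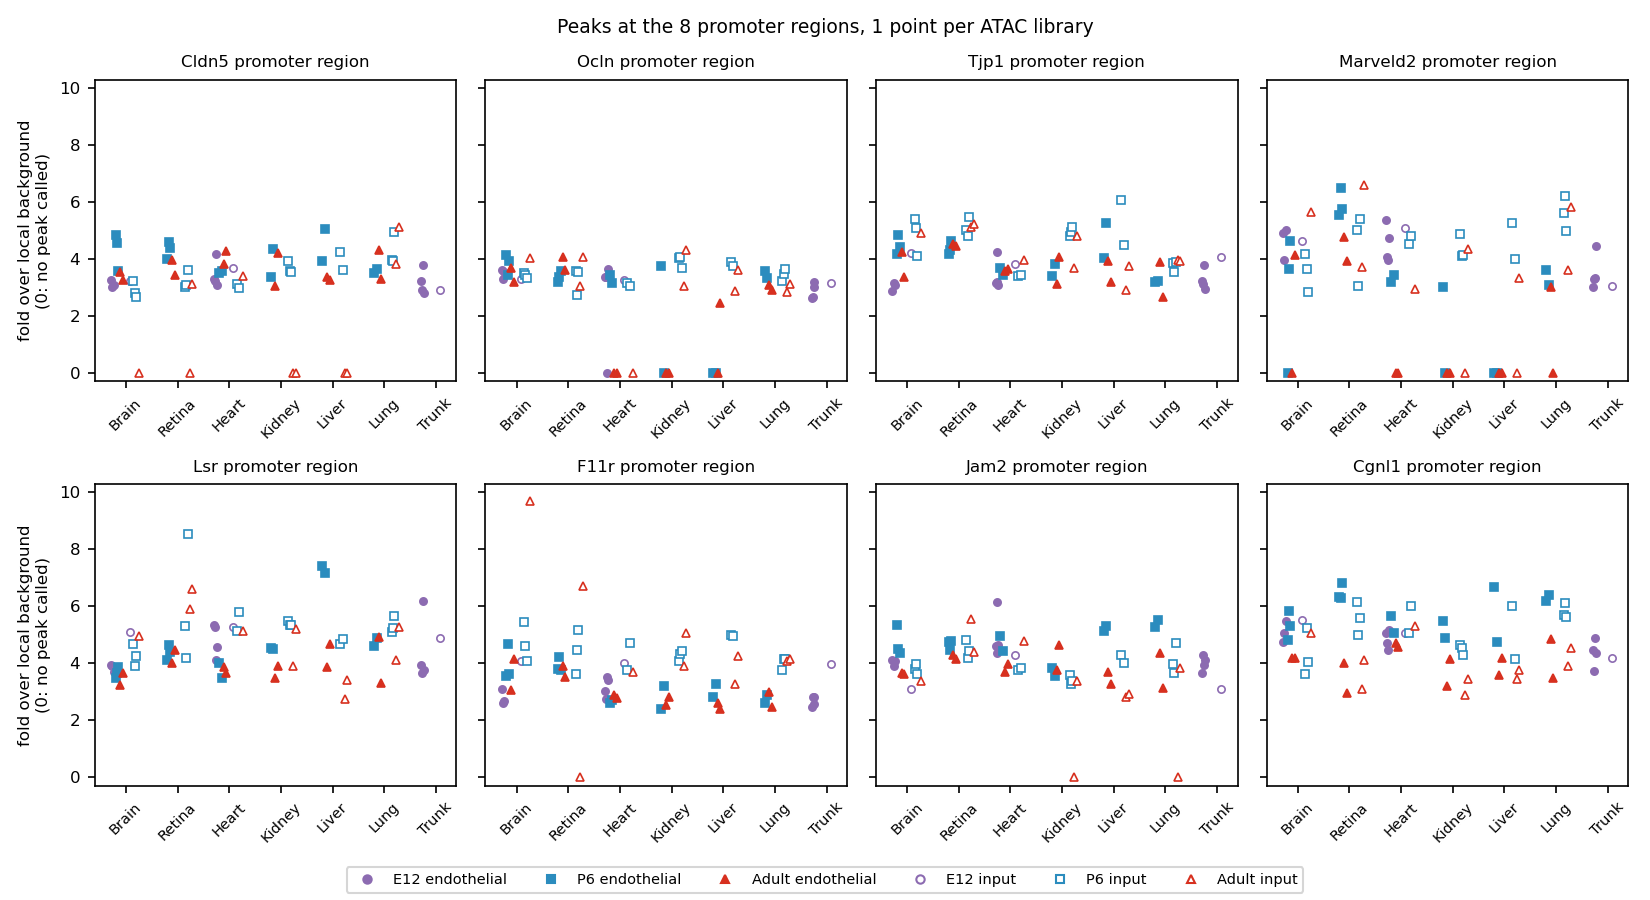
Fold over local background at the 8 promoter regions, 1 point per ATAC library, by organ, with age by colour and shape, filled points for endothelial and open points for input nuclei; 0 means no peak called. Cldn5 is open in all 37 endothelial libraries and in 4 of 10 adult input libraries, and Ocln has endothelial libraries at 0 in heart, kidney and liver, and Marveld2 in these and in brain and lung.

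Over all 30 other junction genes, 21 had a promoter region tested, and 5 of these rose in adult barrier endothelium while 0 fell (limma). They were Ildr2 by 2.51, Cldn11 by 2.38, Patj, a polarity scaffold, by 1.81, Cgn by 1.38 and Magi1, a membrane scaffold, by 1.09. The Magi1 value rests on retina, since adult brain endothelium had no peak there. None of these promoters was called higher in adult endothelial than in input nuclei over the 6 organs. The differences were -0.98 for Ildr2, -0.34 for Cldn11, -0.61 for Patj, -0.09 for Cgn and -0.27 for Magi1. Those of Ildr2 and Patj, lower in endothelial nuclei, passed the limma test but not the size for a call. At P6, 3 of the 5 were also called. Over all promoter regions 10.7% were called in adults (10.1% higher, 0.659% lower) and 9.15% at P6 (8.32% higher, 0.83% lower), and no test compares the shares.

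Over all 303 regions, the 8 promoter regions included, the picture was mixed, with called regions beside uncalled ones in every gene. In adults 27 were higher in brain and retina endothelium, 2 of them the promoters of Ocln and Marveld2, and 10 lower, 12.2% of the regions against 6.22% of all regions called in this comparison (5.02% higher, 1.2% lower). The adult count of 37 was 24 without adult retina endothelium 1, 20 on equal numbers of top peaks and 23 with a stricter peak threshold. At P6 it was 32 higher and 14 lower, 15.2% against 11.4% (8.43% higher, 2.99% lower). At E12, brain against heart and trunk, it was 26 higher and 2 lower, 9.24% against 7.97% (6.93% higher, 1.03% lower). On pileup the P6 and E12 counts were 78 and 50, and on equal numbers of top peaks 16 and 15. The median difference was 0.00 in each, as over all regions. The 1191 regions of the other junction genes were called at 6.8, 9.99 and 8.06%. No test compares these shares, and at P6 and E12 they were near the background. These and the later counts run over every region in at least 3 lists. They include regions that reached this minimum only through the group where they are high and so had to differ, as do the shares over all regions. Of the 303 regions, 156 were in 10 lists or fewer.

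By gene, the higher and lower counts in adults were 11 and 3 of 81 regions for Tjp1, 7 and 3 of 79 for Cgnl1, 5 and 1 of 34 for Ocln and 5 and 1 of 24 for Marveld2. For Cldn5 it was 1 and 1 of 20, for Lsr 1 and 0 of 22, for F11r 1 and 0 of 28, and for Jam2 0 and 2 of 31. Tjp1 and Cgnl1 are long genes with more regions. No region was called in opposite directions at adult and P6, 14 were higher at both ages and 4 lower at both. Of the 27 regions higher in adults, 15 had a peak in brain or retina input and 18 had none in endothelium of heart, kidney, liver or lung. No share over all regions stands beside these overlap counts, so they do not set these genes apart.

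**Figure D3:**
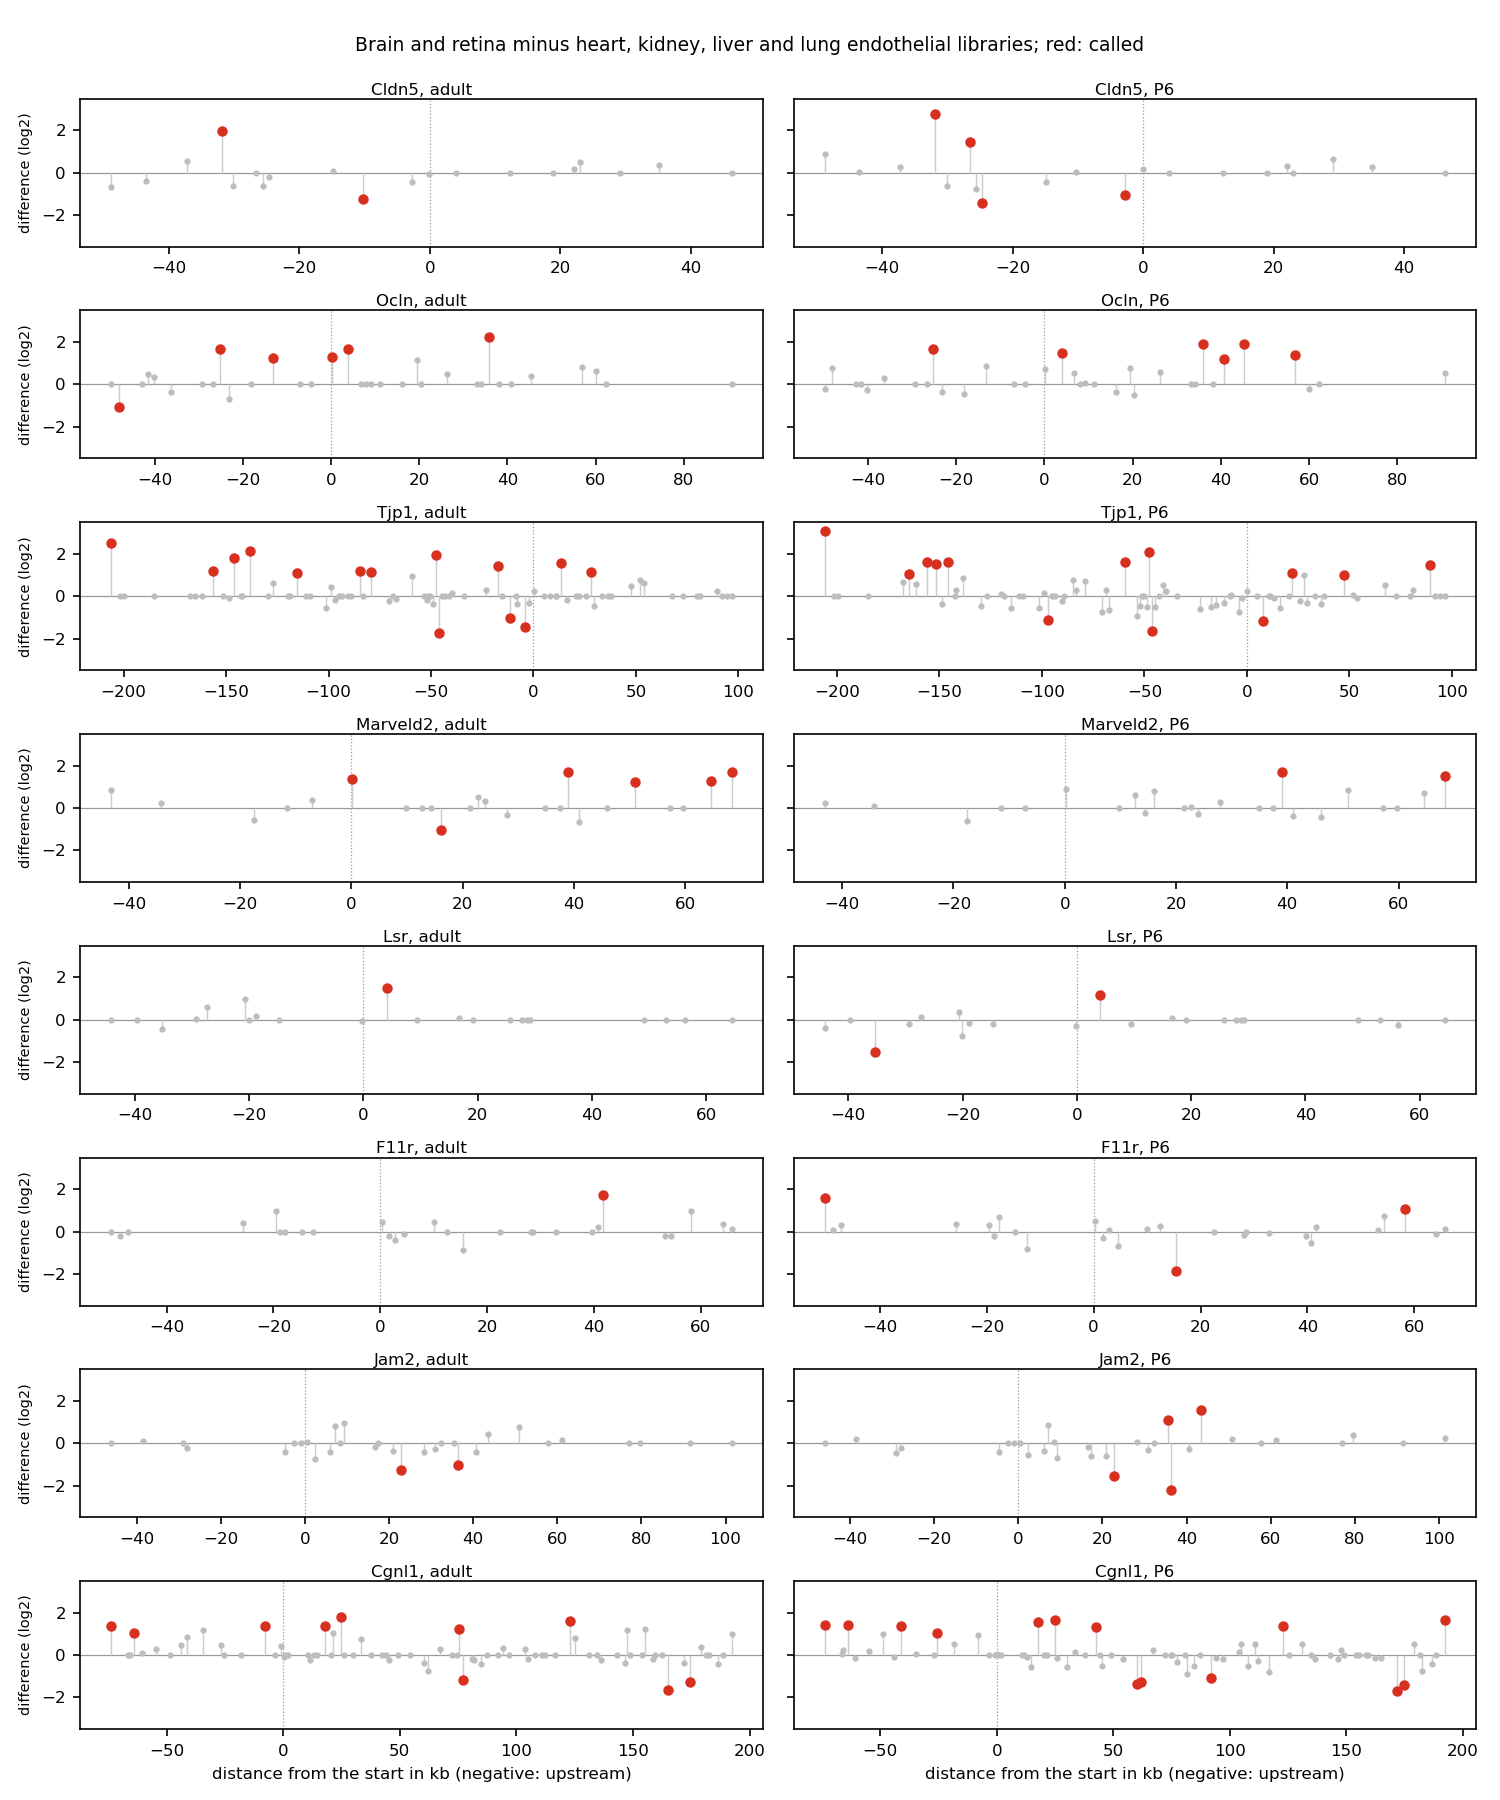
Difference in log2 fold, brain and retina minus heart, kidney, liver and lung endothelium, for each region of the 8 genes by its distance from the start in kb, with adults on the left and P6 on the right; red points are called. The region 31.9 kb upstream of Cldn5 stands at 1.95 in adults and 2.79 at P6, and many grey points lie at or near 0.

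The regions described next are 7 called in the same direction in adults, at P6 and at E12, a set chosen after their values were seen. The first lies 31.9 kb upstream of Cldn5 at chr16:18744640-18745193, between genes. In adult endothelium its folds were 4.33 and 3.77 in brain and 4.78 and 2.86 in retina. At P6 they were 5.73, 6.73 and 7.63 in brain and 7.84, 6.90 and 6.88 in retina, and at E12 5.87, 5.97 and 7.32 in brain. The 16 adult and P6 libraries of heart, kidney, liver and lung endothelium had no peak, nor had the 4 E12 heart libraries, while 2 of 4 trunk libraries had 3.70 and 3.78. Barrier and other endothelium did not overlap at any age, and the differences were 1.95 (SE 0.287, limma adjusted p = 3.99e-06), 2.79 (SE 0.253, limma adjusted p = 2.7e-11) and 2.19 (SE 0.317, limma adjusted p = 1.35e-06). Input held a peak in 2 of 29 libraries, both P6, at 3.28 in brain and 3.29 in retina.

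Retina minus lung, which share 1 kind of read processing, gave 1.89 in adults (limma adjusted p = 0.00637) and 2.85 at P6 (limma adjusted p = 1.87e-06) at this Cldn5 region. At E12 the kind of read processing runs with the organ, so the 2 cannot be told apart there. With the same number of top peaks from each library the adult value was 0.53 (limma adjusted p = 0.226) and the E12 value 0.96 (limma adjusted p = 0.0578).

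Between Ocln and Marveld2, 25.2 kb upstream of Ocln at chr13:100577619-100578209, brain and retina endothelium were again highest. Adult folds were 3.37 and 4.50 in brain, 4.93 and 4.45 in retina and 3.49 and 2.85 in liver, with 0 in heart, kidney and lung. Liver thus overlapped brain. The differences were 1.68 (SE 0.185, limma adjusted p = 8.85e-09) in adults, 1.69 (SE 0.163, limma adjusted p = 1.44e-10) at P6 and 1.36 (SE 0.204, limma adjusted p = 2.78e-06) at E12, where the 3 brain libraries had 4.95, 4.22 and 4.92, the 4 trunk libraries 2.95 to 4.30 and the 4 heart libraries 0. No input of brain or retina had a peak, and endothelial minus input was 0.97 in adults and 0.90 at P6, just under the size for a call.

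Tjp1 held 4 of the 7 regions, and its own start lies inside a longer annotated gene, so that 3 of them are within the gene although upstream of that start. The pair at 46.3 and 47.7 kb upstream went in opposite directions although they are neighbours. At chr7:65417130-65417961 no brain or retina endothelial library had a peak, of 13, while 23 of 24 others did, with adult folds of at most 4.41. This region fell in barrier endothelium by 1.74 in adults (SE 0.284, limma adjusted p = 2.2e-05), 1.65 at P6 (SE 0.25, limma adjusted p = 2.33e-06) and 1.16 at E12 (SE 0.314, limma adjusted p = 0.00771). Input of retina did have a peak there in 4 of 5 libraries and input of brain in 1 of 5. The adult difference was -0.98 (limma adjusted p = 0.0503) with a stricter peak threshold and -1.36 (limma adjusted p = 0.074) for retina minus lung.

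Next to it, at chr7:65418608-65419334, all 13 brain and retina endothelial libraries had a peak and 0 of 24 others. Folds were 4.13 and 4.40 in adult brain, 4.29 and 2.88 in adult retina, 3.72 to 5.28 in P6 brain, 3.76 to 4.20 in P6 retina and 2.25 to 3.43 in E12 brain. The differences were 1.95 (SE 0.208, limma adjusted p = 3.89e-09), 2.09 (SE 0.183, limma adjusted p = 1.14e-11) and 1.51 (SE 0.23, limma adjusted p = 3.8e-06) at adult, P6 and E12. Input had a peak in 3 libraries, all P6 brain or retina.

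Among these Tjp1 regions, the one with the largest difference in adults and at P6, but not at E12, lay 205.9 kb upstream of the start. It is at chr7:65576657-65577586, outside the gene. Adult endothelial folds were 7.38 and 6.81 in brain and 4.83 and 4.24 in retina, P6 folds 7.55, 10.2 and 8.71 in brain and 7.95 to 8.33 in retina, and all other adult and P6 organs had none. The difference was 2.5 (SE 0.244, limma adjusted p = 3.99e-10) in adults and 3.08 (SE 0.215, limma adjusted p = 1.5e-14) at P6. Whole tissue was open there too, and all 9 adult and P6 inputs of brain and retina had a peak, at 3.12 to 8.07. Mean log2 folds in endothelial and input nuclei were 2.82 and 2.39 in adult brain, 2.18 and 1.90 in adult retina, 3.13 and 2.50 in P6 brain and 3.03 and 2.78 in P6 retina, higher in endothelial nuclei each time. Endothelial minus input was tested over 6 organs only, of which 4 had no peak in either kind of nuclei, and was 0.12 and 0.15, not called. At E12 the 4 trunk libraries had 4.49 to 7.00 and 2 of 4 heart libraries 3.54 and 5.17, and the difference was 1.04 (SE 0.27, limma adjusted p = 0.00551). The E12 call was lost without any 1 of 4 libraries (0.87 to 0.99): brain 3, heart 1, heart 3 or trunk 1.

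The last Tjp1 region, 145.9 kb upstream at chr7:65516533-65517722, was higher by 1.79 in adults (SE 0.218, limma adjusted p = 9.16e-08), 1.64 at P6 (SE 0.193, limma adjusted p = 1.65e-08) and 1.57 at E12 (SE 0.241, limma adjusted p = 4.51e-06). At P6 lung endothelium reached 5.13 and 4.58, as high as brain (3.91 to 4.82) and retina (4.44 to 5.43), and retina minus lung was 0.02. Input had a peak in E12 brain (4.73), in all 3 P6 lung libraries (3.14 to 4.74) and in 1 of 3 P6 libraries each of brain and retina. A region 64.0 kb upstream of Cgnl1 at chr9:71835159-71836129 was also open in P6 lung endothelium, at 4.69 and 4.24, as high as brain (4.24 to 4.97) and above retina (2.79 to 3.79), and retina minus lung was -0.39 there, against the direction of the main difference. Whole tissue was open there in all 3 P6 libraries of brain (2.61 to 3.47) and of lung (3.64 to 5.38) and in E12 brain and trunk. The difference was 1.44 at P6 (SE 0.265, limma adjusted p = 5.01e-05) and 1.18 at E12 (SE 0.332, limma adjusted p = 0.0103), the latter lost without E12 brain 3 (1.08, limma adjusted p = 0.0756), and both with 50% of the region covered (0.88 and 0.51). In adults it was open in brain, at 4.37 and 4.04, and had no peak in retina. Its adult difference of 1.04 (SE 0.3, limma adjusted p = 0.0178) was lost without any 1 of the 4 brain and retina libraries, with adjusted p from 0.0560 to 0.0759.

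**Figure D4:**
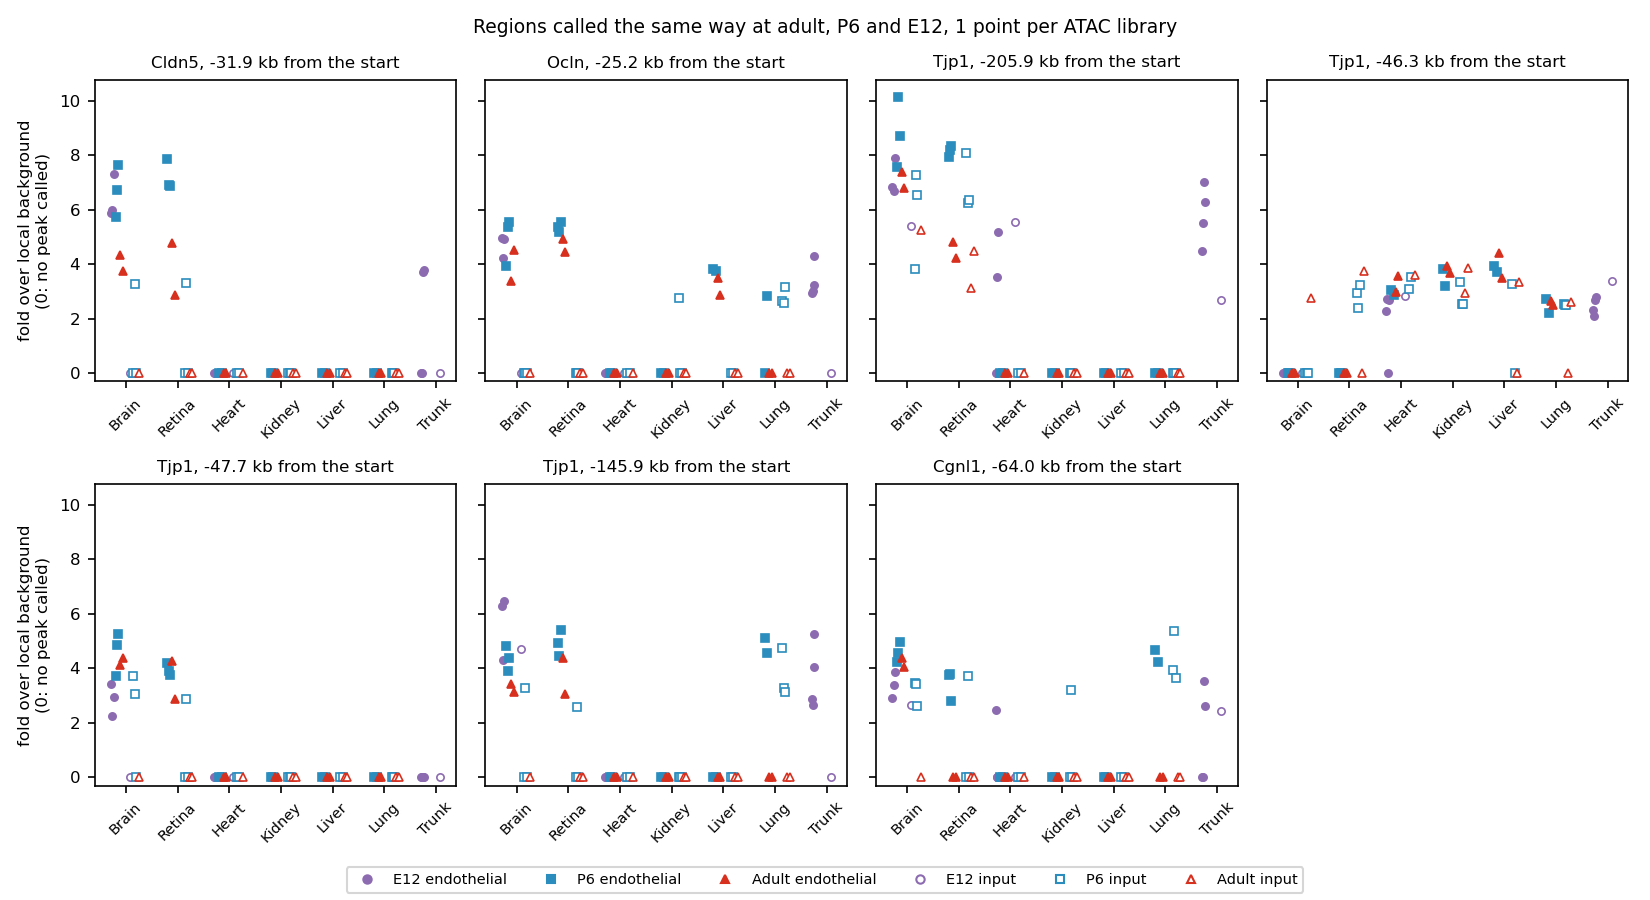
Fold over local background at the 7 regions called in the same direction in adults, at P6 and at E12, 1 point per ATAC library, drawn as in the plot of promoter folds. The region 31.9 kb upstream of Cldn5 and that 47.7 kb upstream of Tjp1 have peaks in all 13 brain and retina endothelial libraries, and the one 46.3 kb upstream of Tjp1 in none of them.

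Further regions were higher in brain and retina at adult and P6 but not called at E12, and were also picked after their values were seen. At 35.9 kb into Ocln, chr13:100516185-100517084, the differences were 2.23 (SE 0.359, limma adjusted p = 1.86e-05) and 1.91 (SE 0.317, limma adjusted p = 1.03e-05), with peaks in 10 of 10 brain and retina endothelial libraries and 2 of 16 others. At 3.9 kb into Ocln, chr13:100548335-100548762, they were 1.69 and 1.5, with peaks in 9 of 10 and 0 of 16 and in 0 of 29 inputs. At 24.9 kb into Cgnl1, chr9:71746350-71747028, they were 1.81 and 1.65, and the E12 difference was -0.67 (limma adjusted p = 0.265).

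Jam2 held 2 of the 4 regions lower in barrier endothelium at both ages. These 2 were picked after their values were seen. At 22.8 kb into the gene, chr16:84796631-84797234, brain and retina had a peak in 0 of 4 adult and 2 of 6 P6 libraries against 5 of 8 and 8 of 8 elsewhere, and fell by 1.24 (SE 0.398, limma adjusted p = 0.0354) and 1.54 (SE 0.351, limma adjusted p = 0.000811). At 36.3 kb, chr16:84810262-84810674, it was 0 of 4 and 0 of 6 against 4 of 8 and 8 of 8, a fall of 1.01 (SE 0.29, limma adjusted p = 0.0164) and 2.22 (SE 0.256, limma adjusted p = 1.08e-08). At E12 the 3 brain libraries had a peak at both. Within brain endothelium both fell from E12 to P6, by 1.75 (SE 0.53, limma adjusted p = 0.0151) and 1.61 (SE 0.387, limma adjusted p = 0.00191).

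Lsr had 1 region called higher in adults, 4.1 kb into the gene at chr7:30969070-30969679. Adult folds were 4.21 and 3.63 in brain, 4.56 and 3.18 in retina and 3.35 and 3.12 in heart, with none in kidney, liver or lung, and the difference was 1.52 (SE 0.196, limma adjusted p = 2.79e-07). At P6 brain and retina (4.56 to 5.63) overlapped heart (5.43 and 5.57) and lung (4.64 and 4.16), with a difference of 1.19 (SE 0.172, limma adjusted p = 1.04e-06) and 0.19 for retina minus lung. At E12 all 11 endothelial libraries had a peak and the difference was 0.14. This region was more open in endothelial than input nuclei at P6, by 1.30 (SE 0.119, limma adjusted p = 6.21e-12), with 4 of 29 inputs carrying a peak.

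By smallest adjusted p, several genes led with regions open in 1 organ and few libraries. The region 30.1 kb upstream of Cldn5 (chr16:18746313-18747096) had a peak in all 4 adult and P6 heart endothelial libraries, at 5.69 to 6.12, in the 3 adult and P6 heart inputs, and in no other of the 66. Its barrier difference was -0.64 at both ages. The region 4.7 kb upstream of Jam2 (chr16:84769260-84769662) was open in the 4 adult and P6 liver endothelial libraries alone, at 2.90 to 3.30, with -0.40 in adults and -0.42 at P6. The region 186.6 kb downstream of the Cgnl1 start (chr9:71584862-71585119), at Myzap, was likewise open in those 4 liver libraries alone, at 2.88 to 3.59, with -0.42 at both ages. Averaged over 4 organs, none of the 3 reached the size for a call, and with nearly all values at 0 their SE was 0.0202 to 0.0421. Each of the 3 passed the minimum of 3 lists only through the organ where it is high. They had to differ, so their rank by adjusted p supports nothing.

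A region 19.5 kb upstream of F11r (chr1:171417806-171418284), at Usf1, was open in both adult brain libraries, at 4.29 and 3.59, in 1 P6 brain library at 3.60 and in no other, with a difference of 0.99 in adults. At 75.3 kb into Cgnl1 (chr9:71696124-71696532) the adult retina alone was open, endothelial nuclei at 5.71 and 5.41 and input at 5.05 and 6.78. The adult difference was 1.24 and rests on retina, since adult brain endothelium had no peak. No p is given for it, because the region, with 4 lists, passed the minimum of 3 lists through the organ where it is high and had to differ. The same holds for the region 19.5 kb upstream of F11r, whose 3 lists were all brain endothelium. It also holds for 2 regions below that are given without a p.

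At P6, F11r had a region 50.3 kb upstream, at Nectin4 (chr1:171387050-171387571), with a peak in 5 of 6 brain and retina endothelial libraries and 0 of 8 others, a difference of 1.58 (SE 0.263, limma adjusted p = 1.08e-05). All 3 P6 retina inputs had a peak there too, as had both P6 heart inputs (2.60 and 2.94) and 1 of 3 P6 lung inputs (3.19). The difference was 0.00 with a stricter peak threshold. For Ocln a region 45.3 kb into the gene (chr13:100506952-100507497) had a peak in 6 of 6 and 0 of 8, and 0 of 29 inputs, a difference of 1.90, given without a p. It had a peak in 1 of 4 adult brain and retina libraries. The adult and P6 barrier differences themselves differed at 16 of the 303 regions, 7 higher and 9 lower in adults, against 3.54% of all regions (1.27% higher, 2.27% lower), a comparison added after the data were seen.

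The regions with the smallest adjusted p of each gene at E12 differed in where else they had peaks. A region 12.3 kb downstream of the Cldn5 start, at Cdc45 (chr16:18788931-18789441), had folds of 6.59, 5.52 and 4.43 in brain, 3.34, 3.27, 4.55 and 5.31 in trunk, 3.06 in 1 of 4 heart libraries and no peak in any other of the 66. Brain overlapped trunk, and the difference was 1.24 (SE 0.178, limma adjusted p = 1.25e-06). A region 41.1 kb upstream of the Tjp1 start (chr7:65412139-65412556) was open in 3 of 3 brain and 0 of 8 heart and trunk libraries, with a difference of 1.40, given without a p, and its other 2 peaks were in P6 brain endothelium. A region 79.6 kb from the Jam2 start, at Gabpa (chr16:84853550-84853870), was likewise open in 3 of 3 and 0 of 8, with 1.72 (SE 0.152, limma adjusted p = 1.32e-11), and 0.63 (limma adjusted p = 0.0924) with a stricter peak threshold. At P6 it had a peak in all 3 retina and both lung endothelial libraries and in none of brain. The leading regions of Ocln and Marveld2 (chr13:100570737-100571106, 1.02), Lsr (chr7:30916747-30917542) and Cgnl1 (chr9:71588892-71589577, 1.11) were called. At each, all 4 trunk libraries had a peak and no E12 heart library had one. Brain overlapped trunk at each, with 3.38 to 4.04 against 2.97 to 3.61 for Ocln and Marveld2. It was 3.95 to 4.36 against 2.75 to 4.52 for Lsr, and 3.765 to 4.38 against 3.17 to 3.93 for Cgnl1. The leading region of F11r (chr1:171465927-171466132, 0.63) was not called.

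Against whole tissue, 31 of 303 regions were higher in endothelial nuclei at P6 and 1 lower, 10.6% against 4.47% of all regions called (3.01% higher, 1.46% lower). In adults 7 were higher and 4 lower, 3.63% against 1.62% (0.605% higher, 1.01% lower). The adult count of 11 was 3 with a stricter peak threshold, 5 with 50% of the region covered and 35 on pileup, and the P6 count of 32 was 15 on equal numbers of top peaks and 66 on pileup. Cldn5 had the highest share, 5 of 20 at P6 and 3 of 20 in adults. The Cldn5 regions described next were picked after their values were seen. At 10.3 kb upstream of Cldn5, chr16:18766281-18766825, the P6 difference was 1.98 (SE 0.185, limma adjusted p = 1.1e-11), with peaks in 14 of 14 endothelial and 4 of 16 input libraries. In adults this region had a peak in 0 of 4 brain and retina and 5 of 8 other endothelial libraries, a barrier difference of -1.23 (SE 0.304, limma adjusted p = 0.00454), against 0.01 at P6. At 14.9 kb upstream, chr16:18761583-18762341, endothelial nuclei were higher in adults by 1.17 (SE 0.308, limma adjusted p = 0.00709) and at P6 by 1.21 (SE 0.26, limma adjusted p = 0.000244). Both Jam2 regions above were higher in endothelial than input nuclei at P6, by 1.15 (limma adjusted p = 0.000189) and 1.25 (limma adjusted p = 2.51e-07).

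Brain endothelial libraries held 101322 to 111142 peaks at E12, 27160 to 87133 at P6 and 38465 and 45094 in adults. Their kept tags were 31.8 to 42.3 M, 19.1 to 20.2 M, and 17.9 and 23.9 M. P6 libraries 1 and 2 had another kind of read processing than the rest. These features run with age, so their part in the counts cannot be told apart from that of age. Within brain endothelium over time, 12 regions were higher and 35 lower at P6 than at E12, 15.5% against 16.7% of all regions (3.22% higher, 13.5% lower). From P6 to adult 2 were higher and 12 lower, 4.62% against 1.85% (0.198% higher, 1.65% lower). These 14 calls rest on few libraries: limma made 8 without adult brain library 2 or P6 brain library 3, 24 without P6 brain library 1, and 0 when only the 2 groups were fitted, where 9 of 109 regions tested had an unadjusted p under 0.05. The Cldn5 region at Cdc45 fell by 2.44 from E12 to P6 (SE 0.215, limma adjusted p = 1.08e-11). The region 45.3 kb into Ocln rose by 1.69 (SE 0.213) and then fell by 1.37 from P6 to adult (SE 0.238), both given without a p, as above. Its adult change was -0.59 without adult brain library 2. The 8 promoter regions were not called at either step, with differences of -0.84 to 0.56 from E12 to P6 and -0.37 to -0.09 from P6 to adult. With peaks that cover 50% of the region, those of Ocln and Tjp1 were instead called lower at P6 than at E12, by -1.80 (limma adjusted p = 0.00889) and -1.60 (limma adjusted p = 0.022), and on equal numbers of top peaks that of Tjp1 was called higher, by 2.16 (limma adjusted p = 0.00408). At the region 31.9 kb upstream of Cldn5 they were 0.07 and -0.72, neither called.

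The promoters whose pattern over the 37 endothelial libraries was most like that of Cldn5 were those of Rab33b (Pearson r = 0.852), Vcl (0.829), Slc22a5 (0.822), Catsper2 with Pdia3 (0.811) and Mtmr12 (0.810), of 12837 promoter regions. Such likeness is common here, since 21.4% of all promoter regions had r above 0.5 with it. All r come from the same libraries, which differ in depth.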

How the data were processed

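The ATAC-seq lists hold, per the file headers, broad peaks called by MACS 2.1.2 in each library alone, with shift -100, extension 200, a q threshold of 0.05 and no control. Per the submitters' processing notes the build is mm10 and Bowtie2, SAMtools and Picard were used. Each peak has the authors' pileup (a signal of tag coverage), fold (ratio of pileup to local background) and −log10 p and q, as deposited. The single-cell matrices hold UMI counts, made with Cell Ranger per the submitters' processing notes.

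Stretches covered in at least 3 of 66 lists and at least 100 bp long gave 293685 regions (median 418 bp). A region's value is log2 of the highest fold of a peak overlapping it by at least 50 bp, and 0 without a peak, so a peak just under the calling threshold counts as 0. limma 3.58.1 (R 4.3.3) fitted 1 mean per group over all 66 libraries, with a mean-variance trend. The barrier comparisons set the mean of brain and retina endothelium against that of heart, kidney, liver and lung. Promoter regions overlap 500 bp on either side of a RefSeq start, and for Jam2 the lower end of the gene served as start. Gene positions are from RefSeq GRCm38.p6. Single-cell values were computed with Python 3.11.15, numpy 2.4.6, pandas 2.3.3 and scipy 1.17.1, on genes with at least 20 UMIs in either library of a pair. The E16.5 matrix came without its own gene table and was read in the row order of the others: its log2 levels correlated with E12.5 across genes at r = 0.978, and at 0.206 with rows moved by 1.

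Both kinds of call were tested on simulated data. The limma calls missed many of the shifted regions, and the 2-fold rule, which has no test, also passed many genes with no shift through counting error alone, so a ratio is to be read with its interval. The members and lists were chosen with earlier results of these data known. Named were all 8 promoters, each gene's region with the smallest adjusted p in the adult, P6 and E12 organ comparisons, 5 promoters most like that of Cldn5, and at most 6 other junction genes. Other regions were picked after their values were seen, as said beside them. The bulk RNA-seq files were not used here, as their transcript identifiers were not paired with genes.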

Additional observations from a re-analysis of the deposited data

Results flagged for a closer look

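Within groups of 4 E12 libraries, 7 of 37 group values tested had a library far from the other 3. Chance flags about 1 in 20 such groups where values are continuous. That rate does not hold for 5 of the 7, in which 1 library stood at 0 or the other 3 did, since no peak is scored as 0 and peaks lie well above it. In E12 heart endothelium the log2 fold was 1.6156 in 1 library and 0 in the rest at the Cldn5 region at 12.3 kb, and 1.3078 in 1 library and 0 in the rest 64.0 kb upstream of Cgnl1. Heart library 3 was at 0.0 at the Ocln promoter and at 0.0 at the region 50.3 kb upstream of F11r, where the other 3 had peaks, and at 2.0854 at the Tjp1 promoter, above them. That library had the fewest kept tags, 10.1 M, and without it 28 regions were called in brain at E12, as with it. In E12 trunk, 1 library reached 2.6277 at the Lsr promoter, and 1 had 1.0736 at the F11r region at 28.5 kb where the rest had no peak.

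At 3 named regions the barrier difference itself differed between adult and P6, as the adult minus the P6 difference in limma. It was -1.51614 for the region 45.3 kb into Ocln, -1.57957 for the region 50.3 kb upstream of F11r (adjusted p = 0.0106) and 1.23716 for the region 75.3 kb into Cgnl1. The first had a peak in 6 of 6 brain and retina endothelial libraries at P6 and 1 of 4 in adults, the second in 5 of 6 and 0 of 4, and the third in 0 of 6 and in 2 of 4, both retina. No p is given for the first and the third, since they reached the minimum of 3 lists only through the group where they are high.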

How the results depend on the processing

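Counts below are member regions called by limma. For barrier adult (37) they were 20 on equal numbers of top peaks and 23 with a stricter peak threshold. For barrier P6 (46) they were 78 on pileup, 16 on top peaks and 95 with no minimum difference. For brain E12 (28) they were 50 on pileup, 15 on top peaks, 48 with no minimum and 13 in a window of 5 kb. For endothelial adult (11) they were 35 on pileup, 3 with the stricter threshold, 5 with 50% of the region covered, 19 with the number of peaks as a covariate and 58 with no minimum. For endothelial P6 (32) they were 66 on pileup, 15 on top peaks, 140 with no minimum and 20 within 5 kb. From P6 to adult brain (14) they were 3 with the stricter threshold, 9 with 50% covered, 8 within 5 kb and 0 by limma with only the groups compared. From E12 to P6 brain (47) they were 20 on top peaks, 27 with only the groups compared and 25 within 5 kb. Top peaks, 19464 per list, and a window of 5 kb leave fewer regions by construction, and the cause of the other shifts was not tested.

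Leaving out 1 library gave 24 to 37 for barrier adult (24 without adult retina endothelium 1), 45 to 52 for barrier P6, 21 to 32 for brain E12, 9 to 14 and 27 to 33 for endothelial adult and P6, 8 to 24 from P6 to adult brain (8 without adult brain 2 or P6 brain 3, 24 without P6 brain 1) and 37 to 51 from E12 to P6. Among 51 called differences of named regions, 21 kept their call in every alternative and 30 lost it in at least 1. Directions turned at the Ocln and Tjp1 promoters from E12 to P6 (-1.80 and -1.60 with 50% covered), at the Lsr promoter in barrier adult (1.15 on pileup, 1.46 with 50% covered) and 64.0 kb upstream of Cgnl1 in barrier P6 (-0.39 for retina minus lung). Past 2-fold from P8 to adult there were 2 genes, not 1, with the mean of shares per barcode, the added gene being Jam2.

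A replicate block gave 37, 43, 29, 12, 31, 13 and 47 in the order above. Libraries of the same number did not deviate together on average (mean r 0.0013 over 600 pairs, single values -0.275 to 0.237). These pairs run over all ages and organs. The mean thus cannot decide whether endothelial and input libraries of the same organ and age were paired.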
